A study of Mus musculus with 12 samples.

Results

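The genes described here take iron through a macrophage: 10 genes for heme transport and breakdown, iron storage, iron import and export, and their transcriptional control, measured in sorted myeloid cells of mouse bone marrow. They were Slc48a1, Hmox1, Blvrb, Slc11a1, Fth1, Ftl1, Slc40a1, Tfrc, Spic and Bach1, matched by mouse symbol to the Ensembl rows of the deposited tables, and all 10 were found among 56953 genes, of which 52029 carried a symbol. Messenger RNA was measured by full-length cDNA sequencing in 4 groups of 3 libraries each, all from the bone marrow of 8-week-old female C57BL/6J mice. Macrophages were sorted in parallel as eYFP+ and eYFP- cells, and monocytes as Ly6Chi and Ly6Clo cells. In the lineage tracer that the study's methods describe for the macrophages (Rank cre/+;R26.eYFP fl/+), a Cre recombinase from the Rank locus switches on eYFP in embryonic myeloid progeny, so eYFP+ stands for embryonic origin and eYFP- macrophages are defined only by the absence of label. The genotype of the monocyte donors is not given in the sources used here, nor is it said whether libraries of one number came from one mouse, so p-values measure the spread between these libraries. Macrophages were gated as F4/80+ CD206+ VCAM1+ cells, so Adgre1 (F4/80), Mrc1 (CD206) and Vcam1 served the sort. Each library was made from a small number of sorted cells by amplification of full-length cDNA.

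Macrophages of the bone marrow engulf the nuclei that erythroblasts expel and aged red cells, and return the iron to the plasma. Heme leaves the phagolysosome through the transporter Slc48a1 (HRG1) and is opened by heme oxygenase 1 (Hmox1) to biliverdin, carbon monoxide and iron, and biliverdin is reduced by biliverdin reductases such as Blvrb. The freed iron is stored in ferritin, built of heavy (Fth1) and light (Ftl1) chains, or leaves through ferroportin (Slc40a1), the only known cellular iron exporter in mammals. Bach1 represses many of these genes until heme binds it, and Spic is an Ets-family transcription factor needed for red pulp and bone marrow iron-recycling macrophages. Iron also acts on the mRNAs themselves: when iron is scarce, iron regulatory proteins bind a hairpin, the iron-responsive element, which blocks translation from a 5′ untranslated region and protects the transferrin receptor mRNA from decay through its 3′ untranslated region.

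The hairpins that tie 4 of the members together were located in the untranslated regions of annotated protein-coding transcripts (GENCODE, GRCm38, not the GRCm39 build the counts were made on) by the letters C, 5 stem bases, the loop CAGTGN and 5 bases pairing with those stem bases (Watson-Crick or G-T). They are printed with the unpaired C and the loop in capitals and 5′ to 3′ on the transcript strand, to show how alike the element is in genes that store, export and import iron. Those of Fth1 (chr19:9982732-9982760, plus strand), Ftl1 (chr7:45459779-45459807, minus strand) and Slc40a1 (chr1:45925465-45925493, minus strand) lie in 5′ untranslated regions, and Tfrc held 4 in its 3′ untranslated region, between 32631219 and 32631738 of chromosome 16 (plus strand).
Fth1: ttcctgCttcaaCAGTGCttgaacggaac
Ftl1: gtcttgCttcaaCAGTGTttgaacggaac
Slc40a1: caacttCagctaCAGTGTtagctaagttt
Tfrc A: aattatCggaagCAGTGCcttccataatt
Tfrc B: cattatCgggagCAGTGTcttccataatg
Tfrc C: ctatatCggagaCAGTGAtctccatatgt
Tfrc D: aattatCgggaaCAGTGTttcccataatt
Of all genes with an annotated 5′ untranslated region, 0.148% (31 of 20916) held such a match there, and 0.613% (129 of 21039) held one in the 3′ untranslated region. The pattern asks for all 5 stem pairs, so an element with a mismatch there is missed and the 4 of Tfrc may not be all. The letters A to D only give the order of the Tfrc matches along the transcript. The match is a description of sequence, and no binding was measured here.

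Libraries held between 26390927 and 48618187 counts. Of 9 macrophage markers, 9 were higher in macrophages than in monocytes, but Adgre1, Mrc1 and Vcam1 among them served the sort. The 9 markers summed to 1228550 to 1850430 normalized counts against 19410.2 to 86645, and no marker was at 0 in any group. Macrophage libraries also carried erythroid transcripts, 122802 to 526407 normalized counts summed over 14 markers against 5852 to 18899 in monocytes, and in bulk libraries fewer cells of a type and less RNA per cell cannot be told apart. A pair of libraries stood apart from the others of their groups. Over genes with a mean of at least 50 normalized counts, Ly6Clo replicate 2 correlated with the other Ly6Clo libraries at r of 0.793 and 0.801, against 0.954 between those others, and eYFP+ replicate 1 at 0.912 and 0.906 against 0.969. Both were low in GC-rich transcripts: genes over 52% GC had a median log2 ratio to the rest of the group of -0.86 in Ly6Clo replicate 2 and -0.45 in eYFP+ replicate 1.

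Macrophages devoted a large part of their mRNA to these genes. In TPM (transcript abundance scaled for gene length and depth, so that genes can be compared), the 10 genes together took 3.14% to 4.72% of all transcripts in the 6 macrophage libraries and 0.438% to 0.658% in the 6 monocyte libraries. Ferritin led in every group, with Ftl1 at 11661 ± 3634 TPM and Fth1 at 10188 ± 974 TPM in eYFP+ macrophages (SD, n = 3). Slc40a1 followed with 8356 ± 2729 TPM in eYFP+ and 5633 ± 471 TPM in eYFP- macrophages (SD, n = 3), beside Hmox1 with 7965 ± 2961 and 5588 ± 2324 TPM (SD, n = 3). In the same cells Spic stood at 2268 ± 841 and 1726 ± 319.9 TPM, while Tfrc stood at 19.6 ± 3.92 and 23.6 ± 18.3 TPM and Bach1 at 2.02 ± 0.569 and 2.13 ± 0.701 TPM (SD, n = 3). In Ly6Chi monocytes ferritin was again first, with Fth1 at 2015 ± 88.7 TPM and Ftl1 at 1854 ± 15.1 TPM, and Slc40a1 was at 13.2 ± 1.83 TPM, close to the 11.2 ± 3.77 TPM of Bach1 (SD, n = 3). The exporter thus stood 128.9 to 670 times above the importer Tfrc per transcript length in macrophages and 4.18 to 13.5 times above it in monocytes.

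**Figure D1:**
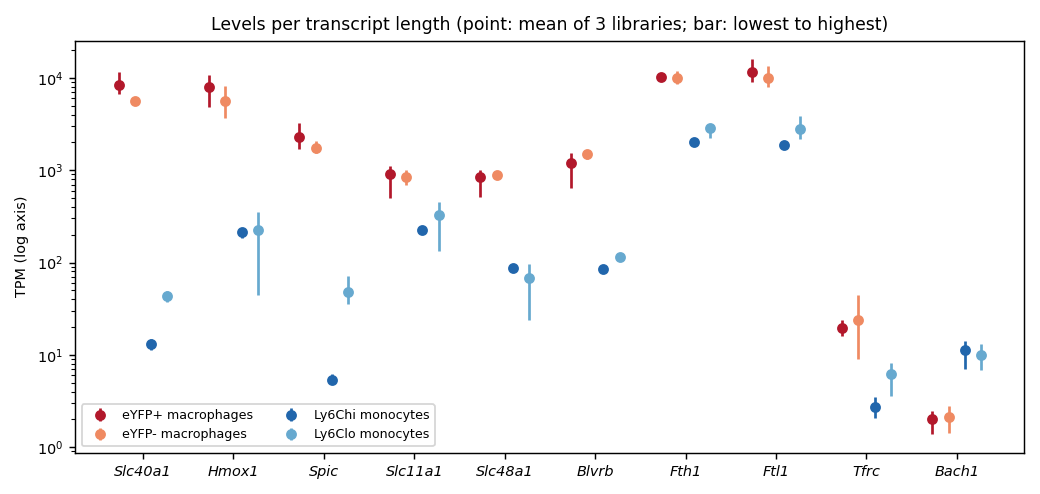
TPM of the 10 genes on a log axis, points for the mean of 3 libraries and bars from the lowest to the highest library, coloured by group. Slc40a1 spans from 13.2 TPM in Ly6Chi monocytes to 8356 TPM in eYFP+ macrophages, while Bach1 is the one gene whose monocyte points lie above its macrophage points.

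Between macrophages and monocytes, the first comparison, 10 of 10 genes differed and in 10 of 10 the 6 macrophage libraries did not overlap the 6 monocyte libraries. Over all genes tested, 35.4% passed in this comparison (adjusted p under 0.05, DESeq2, 20.3% higher and 15% lower in macrophages) and 17.7% had ranges that did not overlap (10.7% higher and 6.94% lower). With edgeR 10 of 10 members and 35.6% of all genes passed, so a call alone is common here and the sizes carry the description. The median log2 difference was 2.82 over the members and 0.08 over all genes tested. The values below are counts normalized for library size, in the order of replicates 1, 2 and 3.

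Slc48a1 (ENSMUSG00000081534), the heme transporter of the phagolysosome, measured 28022, 48795 and 46158 in eYFP+ and 49089.8, 40011 and 41007 in eYFP- macrophages. Ly6Chi monocytes held 4634, 4562 and 4737 and Ly6Clo monocytes 4727, 1324 and 4580.4. The lowest macrophage library, eYFP+ replicate 1, was still far above every monocyte library, and Ly6Clo replicate 2 was the lowest of all. Macrophages were higher by 3.38 ± 0.31 on the log2 scale (SE, 10.4-fold, adjusted p = 2.15e-25, DESeq2).

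Hmox1 (ENSMUSG00000005413), the enzyme that opens the heme ring, measured 163009, 317980.0 and 240064 in eYFP+ and 122037, 222211 and 146449 in eYFP- macrophages. Monocytes held 5997, 7128 and 7515 (Ly6Chi) and 10655, 1539 and 9453 (Ly6Clo). The macrophage groups overlapped each other, and the Ly6Clo libraries spread on both sides of the Ly6Chi ones. The difference was 4.81 ± 0.40 (log2, SE, 28.1-fold, adjusted p = 6.91e-31, DESeq2). Relative to its constitutive relative Hmox2, Hmox1 was 19.9 to 64.1 times higher in TPM in macrophages and 0.292 to 3.06 times in monocytes.

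Blvrb (ENSMUSG00000040466), a biliverdin and flavin reductase, measured 14419, 27686 and 28672 in eYFP+ and 35539, 23550.0 and 30760.0 in eYFP- macrophages. In monocytes the counts were 1906, 1794 and 1695 (Ly6Chi) and 2459.8, 2476 and 2293 (Ly6Clo). Here the monocyte subsets did not overlap each other, whereas the macrophage groups did. Macrophages were 12.8-fold higher (log2 3.67 ± 0.22, SE, adjusted p = 1.52e-59, DESeq2).

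Slc11a1 (ENSMUSG00000026177), or Nramp1, moves divalent metal out of the phagosome, and C57BL/6J mice carry a form of it with impaired function. It measured 24923, 48804 and 47202 in eYFP+ and 33255, 40592 and 37667 in eYFP- macrophages, against 10498, 10311 and 11373 in Ly6Chi and 17262, 6813 and 22001 in Ly6Clo monocytes. The gap was narrow, since the highest Ly6Clo library came close to the lowest eYFP+ library. The difference of 1.59 ± 0.30 (log2, SE, 3.02-fold, adjusted p = 1.13e-06, DESeq2) was the smallest of the 10 genes.

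Ferritin was abundant in every library. Fth1 (ENSMUSG00000024661), the ferroxidase chain, measured 329272, 316825 and 250004 in eYFP+ and 371661, 246583 and 247808 in eYFP- macrophages, and 59314, 63614 and 64356 in Ly6Chi and 92354, 73356 and 95829.8 in Ly6Clo monocytes. Macrophages stood clear of monocytes, and Ly6Clo clear of Ly6Chi monocytes, while the macrophage groups overlapped. The macrophage difference was 1.99 ± 0.18 (log2, SE, 3.98-fold, adjusted p = 1.43e-25, DESeq2).

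Ftl1 (ENSMUSG00000050708), the chain that helps mineralise the iron core, measured 331371, 184992 and 160018 in eYFP+ and 274076, 135646 and 146827 in eYFP- macrophages. Ly6Chi monocytes held 37239, 37433 and 36964, and Ly6Clo monocytes 41407, 82161 and 44947. Replicate 1 was the highest in both macrophage groups, and Ly6Clo replicate 2 stood far above the rest of its group. Macrophages were higher by 2.16 ± 0.30 (log2, SE, 4.47-fold, adjusted p = 5.68e-12, DESeq2). The level of Ftl1 itself is uncertain, because the annotated copy Ftl1-ps1, 99.6% identical over 910 aligned bases, received 2028234 counts over all libraries against 1640930 for Ftl1. With Ftl1 and 3 copies summed into 1 row the difference was 2.13 (adjusted p = 8.12e-11, DESeq2), and between 40.5% and 45.7% of the sum lay on Ftl1 in every library.

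Slc40a1 (ENSMUSG00000025993), ferroportin, showed the widest contrast. Its counts were 838827, 426026 and 422848 in eYFP+ and 427977, 332129 and 332243 in eYFP- macrophages. They fell to 1033, 779.7 and 950.0 in Ly6Chi and 2813, 2736 and 3420.3 in Ly6Clo monocytes. Macrophages and each monocyte subset formed separate ranges, and only the macrophage groups overlapped, eYFP+ replicate 1 standing highest. The difference was 8.09 ± 0.23 (log2, SE, 272.8-fold, adjusted p = 1.68e-257, DESeq2). Tfrc (ENSMUSG00000022797), the receptor that imports transferrin-bound iron, measured only 2515, 1483 and 1703 in eYFP+ and 927, 3738 and 1642 in eYFP- macrophages. In monocytes Tfrc counts were 358, 211 and 261 (Ly6Chi) and 663, 861 and 368 (Ly6Clo). The eYFP- libraries spread over the whole macrophage range, and the lowest of them lay just above the highest Ly6Clo library. Macrophages were higher by 2.26 ± 0.37 (log2, SE, 4.78-fold, adjusted p = 8.45e-09, DESeq2). Tfrc is also a gene of erythroblasts, and the part of the erythroid transcripts given above in this difference was not tested.

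The regulators moved in opposite directions. Spic (ENSMUSG00000004359) measured 123414, 57104 and 59651 in eYFP+ and 77282, 46350.2 and 52916 in eYFP- macrophages, against 186, 228 and 175 in Ly6Chi and 1274, 2783 and 1299 in Ly6Clo monocytes. Each monocyte subset lay in a range of its own, below the joined range of the macrophages. The difference between macrophages and monocytes was 6.86 ± 0.31 (log2, SE, 116-fold, adjusted p = 2.60e-106, DESeq2). Bach1 (ENSMUSG00000025612), the heme-sensing repressor, measured 316, 244 and 148 in eYFP+ and 174, 286 and 241 in eYFP- macrophages, against 1554, 1702 and 847 in Ly6Chi and 1502, 1274 and 839 in Ly6Clo monocytes. It was the one member that was lower in macrophages, by -2.45 ± 0.29 (log2, SE, 5.47-fold lower, adjusted p = 1.31e-15, DESeq2), and its ranges overlapped within each cell type.

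**Figure D2:**
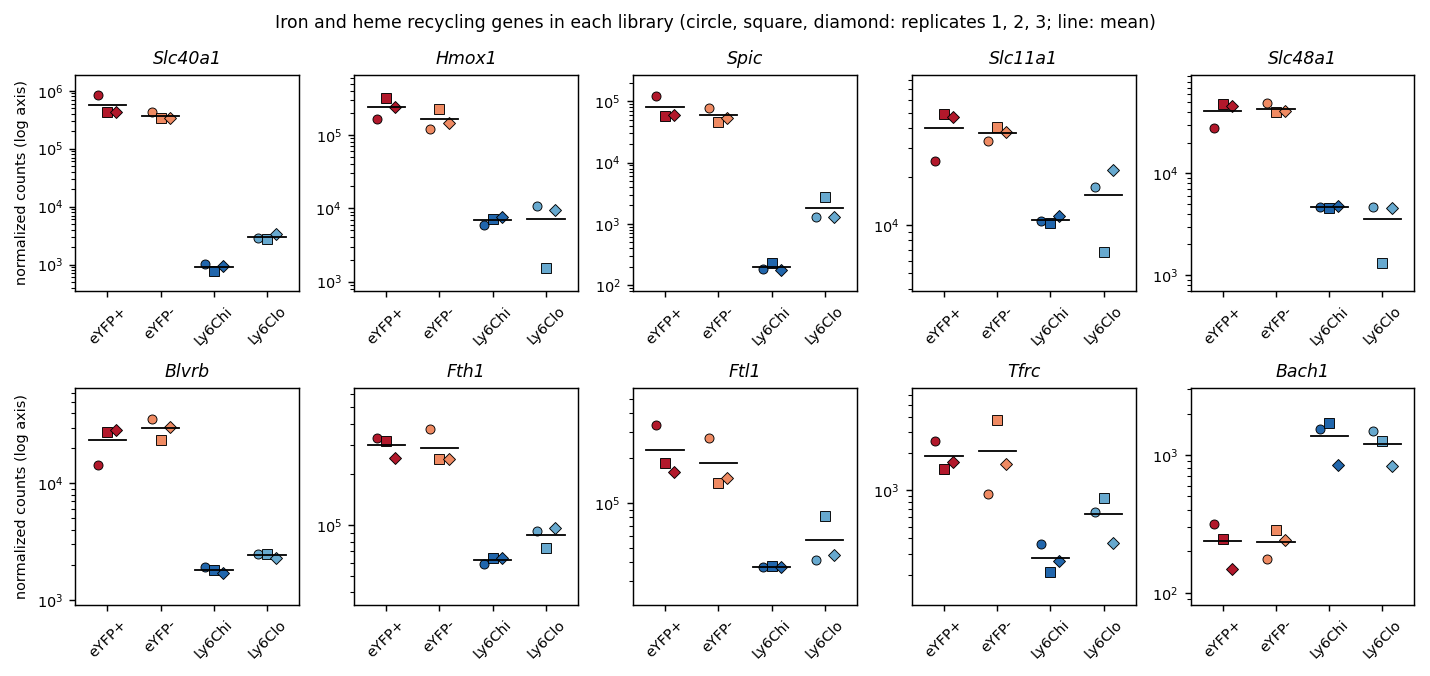
Normalized counts of each gene in each of the 12 libraries on log axes, with circles, squares and diamonds for replicates 1, 2 and 3 and a line for each group mean. The 6 macrophage libraries lie above the 6 monocyte libraries for 9 genes and below them for Bach1, and the square of Ly6Clo replicate 2 falls apart from its group for Hmox1, Slc48a1 and Slc11a1.

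When each macrophage group was set against each monocyte subset, 10 of 10 genes passed in the same direction in every pair. The share of all genes that passed was 24.5% for eYFP+ macrophages against Ly6Chi monocytes, 28% for eYFP+ against Ly6Clo, 27.4% for eYFP- against Ly6Chi and 26.3% for eYFP- against Ly6Clo. These pairs share their libraries, so they order the groups and are not separate evidence. Against Ly6Clo monocytes the calls of Slc11a1 and Tfrc were near the limit: for eYFP+ macrophages the differences were 1.39 ± 0.43 (Slc11a1, adjusted p = 0.00608, DESeq2) and 1.59 ± 0.52 (Tfrc, adjusted p = 0.0105, DESeq2), and over the 20 alternative settings of each, Slc11a1 passed in 15 and Tfrc in 16. For eYFP- macrophages they were 1.28 ± 0.43 (Slc11a1, adjusted p = 0.0143, DESeq2) and 1.74 ± 0.52 (Tfrc, adjusted p = 0.00491, DESeq2), and Slc11a1 passed in 14 and Tfrc in 17 of 20 settings. After a correction for GC content, Ftl1 no longer passed against Ly6Clo monocytes (log2 1.21, adjusted p = 0.178 for eYFP+ and log2 0.46, adjusted p = 0.659 for eYFP- macrophages, DESeq2). For 6 genes (Slc40a1, Hmox1, Spic, Slc11a1, Fth1 and Ftl1) the group means ran in the order eYFP+ macrophages, eYFP- macrophages, Ly6Clo monocytes and Ly6Chi monocytes. Blvrb and Tfrc ran in that order with the macrophage groups exchanged, Slc48a1 with both pairs exchanged, and Bach1 from Ly6Chi and Ly6Clo monocytes down to eYFP+ and eYFP- macrophages. In every one of these orders the step from macrophages to monocytes passed the test and the step between the macrophage groups did not, and the step between the monocyte subsets passed for Slc40a1 and Spic.

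The question of the study's design, whether macrophages of embryonic and adult origin differ, was asked of the same genes with eYFP+ and eYFP- macrophages. None of the 10 passed: 0 were called by DESeq2, 0 by edgeR and 0 by limma, and 0 had an unadjusted p under 0.05 in DESeq2. In all genes tested, 2.04% passed with DESeq2 (0.153% higher and 1.88% lower in eYFP+ macrophages) and 0.334% with edgeR. At an unadjusted p under 0.05 in DESeq2, 585 of 21567 genes were higher and 1306 lower, and limma called 263 of all genes. The ranges of the groups overlapped for all 10 members, while 15.2% of all genes had ranges that did not. Slc40a1 differed by 0.63 ± 0.33 (log2, SE, adjusted p = 0.608, DESeq2), with the mean at 562567 against 364116, Hmox1 by 0.56 ± 0.57 (adjusted p = 1, DESeq2) and Spic by 0.44 ± 0.43 (adjusted p = 0.996, DESeq2). Blvrb lay on the other side at -0.34 ± 0.31 (adjusted p = 0.971, DESeq2), and the remaining 6 genes lay between -0.15 and 0.28. The differences in Slc40a1, Spic and Blvrb rested largely on 1 library: without eYFP+ replicate 1 they were 0.22, -0.0109 and -0.0871 (adjusted p = 1 for each, DESeq2), and the 10 genes then spanned -0.40 (Tfrc) to 0.77 (Hmox1). Without that library and Ly6Clo replicate 2 the differences in Slc40a1, Spic and Blvrb were 0.21, -0.0202 and -0.0962, and 0 members passed. With 3 libraries a group and standard errors of 0.26 to 0.57, a modest difference was not detectable, and the absence of a call does not show equal levels.

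**Figure D3:**
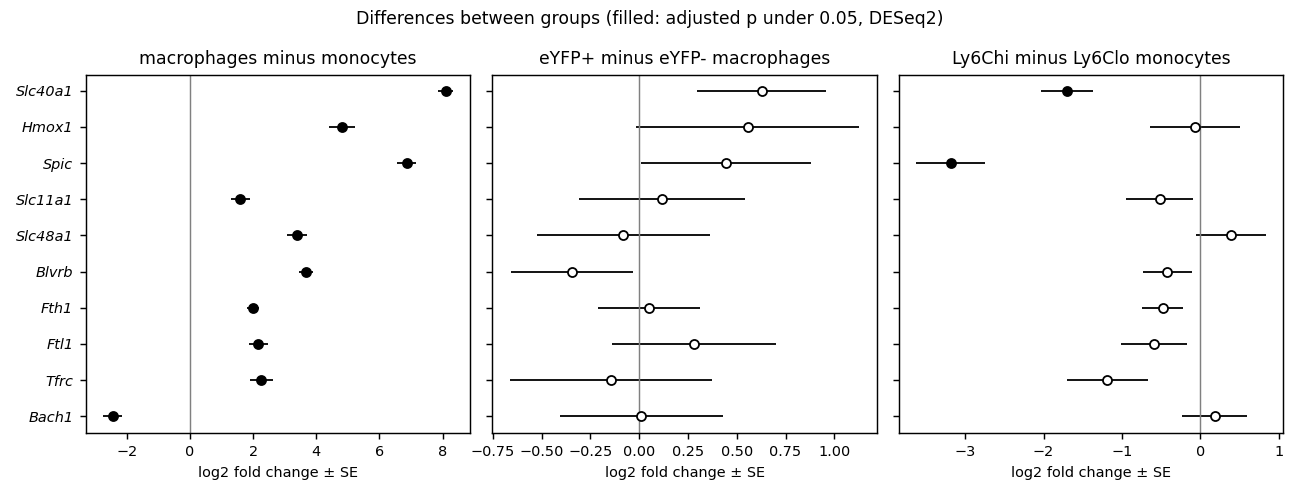
Log2 fold changes of the 10 genes with their standard errors in 3 comparisons (panels have their own scales), filled where the adjusted p was under 0.05. All points are filled for macrophages against monocytes, none for eYFP+ against eYFP- macrophages, and Slc40a1 and Spic for Ly6Chi against Ly6Clo monocytes.

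Other cells' transcripts moved between the macrophage groups beside these genes. Erythroid markers summed to 122802 to 222843 normalized counts in eYFP+ and 282937 to 526407 in eYFP- macrophages (2 of 14 called lower in eYFP+, none at 0 in a group), proliferation markers to 11574 to 21166 and 29456 to 54575 (6 of 14 lower) and neutrophil markers to 1491 to 3064 and 9283 to 45030.0 (4 of 9 lower). Their part in the values of the 10 genes was not tested. The other genes of the iron and heme pathways were read from 9 lists of 88 genes. Of the 84 tested, 5 passed, all lower in eYFP+ macrophages, beside 1.88% of all genes lower and 0.153% higher. No pathway gene was called higher with DESeq2 (0 called). At an unadjusted p under 0.05 in DESeq2, 2 of the 84 were higher and 14 lower. Among those lower were 5 of the 9 heme synthesis genes. Over all 21567 genes tested, 585 were higher and 1306 lower at that threshold. In either direction edgeR called 0 pathway genes, beside 0.334% of all genes, and limma called 2, beside 263 of all genes. The 5 were Hp, the plasma hemoglobin scavenger haptoglobin, at -2.92 ± 0.57 (log2, SE, adjusted p = 6.74e-05, DESeq2), Lcn2, a siderophore-binding neutrophil granule protein, at -4.14 ± 1.10 (adjusted p = 0.0132, DESeq2), Tfr2, the second transferrin receptor, at -2.76 ± 0.78 (adjusted p = 0.0249, DESeq2), Abcb10, a mitochondrial transporter of erythroid cells, at -1.63 ± 0.46 (adjusted p = 0.0263, DESeq2), and Alad, the second enzyme of heme synthesis, at -1.97 ± 0.55 (adjusted p = 0.0223, DESeq2). The 9 genes of heme synthesis had a median of -1.02, beside 0.05 over all genes tested. Hp measured 12.4, 126 and 52.6 normalized counts in eYFP+ and 501, 547 and 400 in eYFP- macrophages, against 44542 to 51729 in Ly6Chi monocytes. The part of erythroid and neutrophil transcripts in the values of the 5 genes was not tested. Hp alone of the 5 passed with each macrophage library left out in turn. Lcn2 measured 22.6, 43.9 and 5.18 normalized counts in eYFP+ and 16.4, 1184 and 57.7 in eYFP- macrophages, so its groups overlapped. The Lcn2 difference rested on eYFP- replicate 2 and was -0.65 without it (adjusted p = 0.969, DESeq2), and its call was also lost without eYFP+ replicate 1 or 3. Tfr2 passed only when eYFP+ replicate 1 was left out, Abcb10 only without eYFP+ replicate 3, and Alad only without eYFP+ replicate 1 or eYFP- replicate 2, with adjusted p of up to 0.181, 0.261 and 0.427 in the other single-library omissions (DESeq2). After the GC correction the calls of Tfr2 (-2.19, adjusted p = 0.104, DESeq2) and Alad (-1.59, adjusted p = 0.471, DESeq2) were lost. Lcn2, Abcb10 and Alad did not pass with limma on log2 of TPM plus 1 (adjusted p = 0.891, 0.214 and 0.182). Without eYFP+ replicate 1 and Ly6Clo replicate 2, 10 pathway genes passed, again all lower, where 4.61% of all genes passed.

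Between the monocyte subsets, 2 of 10 genes passed, Slc40a1 and Spic, both lower in Ly6Chi monocytes, where 8.62% of all genes passed in either direction and 4.97% were lower. Spic was lower by -3.18 ± 0.44 (log2, SE, 9.09-fold, adjusted p = 7.66e-11, DESeq2, and adjusted p = 0.00125, edgeR). Slc40a1 was lower by -1.70 ± 0.33 (log2, SE, 3.25-fold, adjusted p = 1.90e-05, DESeq2, and adjusted p = 0.00761, edgeR). With edgeR 4.32% of all genes passed. Both members passed under each of 20 alternative settings. The ranges of Blvrb, Fth1, Ftl1 and Tfrc also did not overlap, with Ly6Chi below Ly6Clo in each, which makes 6 of 10 with Slc40a1 and Spic, against 11.9% of all genes. These 4 did not pass, at -0.42 ± 0.31 for Blvrb (adjusted p = 0.479, DESeq2), -0.48 ± 0.26 for Fth1 (adjusted p = 0.282, DESeq2), -0.59 ± 0.42 for Ftl1 (adjusted p = 0.451, DESeq2) and -1.19 ± 0.52 for Tfrc (adjusted p = 0.15, DESeq2). Ftl1 moved to -0.21 without Ly6Clo replicate 2 (adjusted p = 0.878, DESeq2) and to -1.57 after the GC correction (adjusted p = 0.14, DESeq2), which put Blvrb at -0.84 (adjusted p = 0.148, DESeq2). Slc11a1 stood at -0.52 ± 0.43 (adjusted p = 0.539, DESeq2) with all libraries and passed without Ly6Clo replicate 2, at -0.87 (adjusted p = 0.0472, DESeq2), and after the GC correction, at -0.74 (adjusted p = 0.022, DESeq2). The median over the members was -0.50, beside 0.02 over all genes tested.

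Most markers of macrophages moved with Slc40a1 and Spic between the monocyte subsets. Of 9 macrophage markers, 7 were also lower in Ly6Chi monocytes, among them Vcam1, Cd5l, Mrc1 and C1qa, and their sum was 19410.2 to 22959 normalized counts in Ly6Chi against 46552 to 86645 in Ly6Clo libraries, with none at 0. As a percent of the macrophage mean, the 9 markers spanned 0.154% (Vcam1) to 19.3% (Adgre1) in Ly6Chi and 0.603% (Vcam1) to 38.8% (Adgre1) in Ly6Clo monocytes. Siglec1, a sialic acid receptor of resident macrophages, stood the other way, at 9.86% in Ly6Chi and 3.52% in Ly6Clo monocytes, a difference of 1.48 ± 0.83 that did not pass (log2, SE, adjusted p = 0.299, DESeq2). Slc40a1 in Ly6Clo monocytes reached 0.645% of its macrophage mean, beside 0.603% for Vcam1, a vascular adhesion molecule of resident macrophages, and 0.628% for Cd5l, a secreted macrophage protein. In Ly6Chi monocytes the levels were 0.199% for Slc40a1, 0.154% for Vcam1 and 0.187% for Cd5l. In Ly6Clo monocytes Spic was at 2.57%, beside 2.86% for Mrc1 and 5.53% for C1qa. In Ly6Chi monocytes Spic was at 0.283%, between C1qa at 0.212% and Mrc1 at 0.803%. Per 100 counts of Vcam1, a marker chosen after its values were seen, Slc40a1 had 50.4 to 77.8 in macrophages, 52.5 to 128.8 in Ly6Clo and 75.7 to 88.1 in Ly6Chi monocytes, and the ranges of the cell types overlapped. The same ratio for Spic was 7.61 to 11.4 in macrophages, 14.6 to 22.2 in Ly6Chi and 19.9 to 131 in Ly6Clo monocytes, the highest in Ly6Clo replicate 2. The part of macrophage transcripts in the monocyte values of Slc40a1 and Spic was not tested. Blvrb stood at 6.72% of the macrophage mean in Ly6Chi monocytes, ferritin at 18.1% to 29.7% in the monocyte subsets, and Slc11a1 at 27.7% in Ly6Chi and 39.6% in Ly6Clo monocytes. Adgre1, the highest of the 9 markers, lay below Slc11a1 in both subsets and below Fth1 (21.3%) in Ly6Chi monocytes.

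**Figure D4:**
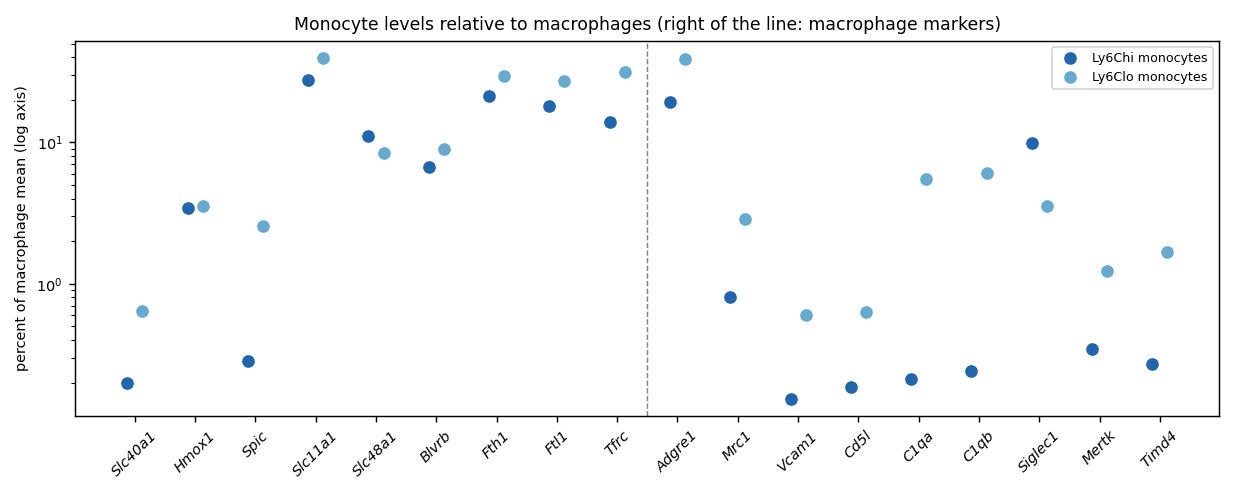
Mean level in Ly6Chi and Ly6Clo monocytes as a percent of the mean of the 6 macrophage libraries, on a log axis, for the 9 genes higher in macrophages and, right of the dashed line, 9 macrophage markers. Slc40a1 (0.199% and 0.645%) lies near Vcam1 (0.154% and 0.603%), Slc11a1 (27.7% and 39.6%) above Adgre1 (19.3% and 38.8%), and Siglec1 is higher in Ly6Chi (9.86%) than in Ly6Clo monocytes (3.52%).

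The pathway around the members differed between the monocyte subsets in 13 of 84 tested genes, 5 higher and 8 lower in Ly6Chi, and in 7 with edgeR, beside 8.62% of all genes with DESeq2 and 4.32% with edgeR. Among the lower were Hfe, which tunes hepcidin and transferrin receptor (-2.61 ± 0.25, log2, SE, adjusted p = 1.37e-23, DESeq2), Cd163, the hemoglobin-haptoglobin receptor (-2.09 ± 0.43, adjusted p = 5.58e-05, DESeq2), Cp, the ferroxidase ceruloplasmin (-3.29 ± 0.79, adjusted p = 0.00101, DESeq2), Abcb6, Bola3, and the lipid-sensing receptors Pparg (-5.14 ± 0.38, adjusted p = 1.29e-37, DESeq2) and Nr1h3 (-2.57 ± 0.31, adjusted p = 2.25e-14, DESeq2). Among the higher were Steap3, the ferrireductase of the transferrin endosome (2.17 ± 0.39, adjusted p = 2.72e-06, DESeq2), Aco1 (iron regulatory protein 1, 0.80 ± 0.27, adjusted p = 0.0379, DESeq2), Alas1, the housekeeping first enzyme of heme synthesis (0.91 ± 0.26, adjusted p = 0.00724, DESeq2), and Mafg, a partner of Bach1 (0.92 ± 0.28, adjusted p = 0.0153, DESeq2). The calls of Aco1, Alas1 and Mafg were lost after the GC correction (adjusted p = 0.171, 0.409 and 0.228, DESeq2). Single libraries ended them too: that of Aco1 was lost without any 1 of the Ly6Chi libraries or Ly6Clo replicate 1 or 2 (adjusted p up to 0.188, DESeq2), that of Mafg without any 1 of the Ly6Chi libraries or Ly6Clo replicate 1 (up to 0.0991), and that of Alas1 without Ly6Chi replicate 1 or 2 (up to 0.065). The call of Abcb6 was lost without Ly6Chi replicate 2 (adjusted p = 0.0673, DESeq2). Without eYFP+ replicate 1 and Ly6Clo replicate 2, 22 genes passed, 10 higher and 12 lower, where 13.6% of all genes passed.

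Between macrophages and monocytes, 45 of 84 pathway genes were higher and 13 lower, beside 20.3% and 15% of all genes. In the heme uptake and breakdown list 8 of 12 were higher and 2 lower, with Cd163 (6.97 ± 0.30, log2, SE, adjusted p = 2.20e-115, DESeq2) and the heme-binding protein Hebp1 (5.93 ± 0.41, adjusted p = 1.35e-44, DESeq2) among the higher. Hp was lower by -7.44 ± 0.40 (adjusted p = 4.65e-76, DESeq2) and the heme exporter Flvcr1 by -0.99 ± 0.28 (adjusted p = 0.00179, DESeq2). Of 11 iron uptake genes 6 were higher, among them the metal importer Slc39a8 (4.40 ± 0.30) and transferrin, Trf (3.23 ± 0.29), and 2 were lower, the granule proteins Lcn2 (-6.38 ± 0.78) and Ltf (-6.41 ± 1.32). Neutrophil markers moved with Hp, Lcn2 and Ltf: they summed to 109407 to 343679 normalized counts in monocytes against 1491 to 45030.0 in macrophages, with 6 of 9 lower in macrophages, and their part in these values was not tested. In the storage list Ncoa4, the receptor that delivers ferritin to the lysosome, was higher (2.40 ± 0.19, adjusted p = 1.68e-35, DESeq2) and Tax1bp1 lower (-0.68 ± 0.26), a call that was lost without any 1 of replicates 2 and 3 of eYFP+ macrophages, eYFP- macrophages or Ly6Chi monocytes (adjusted p up to 0.127, DESeq2). Iron export regulators gave 4 higher (Bmp2 8.39 ± 1.27, Hfe 0.65 ± 0.17) and 1 lower (Rnf217, a ferroportin ubiquitin ligase, -2.83 ± 0.84) of 8. The Hfe value averages differences of opposite sign: against Ly6Chi monocytes Hfe was 4.28-fold higher in eYFP+ (adjusted p = 5.44e-16, DESeq2) and 3.51-fold higher in eYFP- macrophages (adjusted p = 5.00e-12, DESeq2), while against Ly6Clo monocytes it stood at a log2 difference of -0.52 (adjusted p = 0.102, DESeq2) and -0.80 (adjusted p = 0.00627, DESeq2). Iron sensing gave Aco1 higher (1.43 ± 0.19) and Fbxl5, which degrades iron regulatory protein 2, lower (-1.13 ± 0.27) of 6.

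Among mitochondrial iron genes 6 of 10 were higher, with Bola3 (1.28 ± 0.21) and Nfs1 (0.86 ± 0.16) at the lowest adjusted p. Heme synthesis had 7 of 9 higher and 0 lower (0 also with edgeR and at an unadjusted p under 0.05), with Alas2, the erythroid first enzyme, at 4.68 ± 0.69 and Fech, which inserts the iron, at 1.70 ± 0.26. Erythroid markers were higher in macrophages in 14 of 14 genes, and their part in this list was not tested. In the Bach1 and Nrf2 list 7 of 13 were higher, with the glutathione enzyme Gclm (3.73 ± 0.29) and thioredoxin reductase Txnrd1 (1.65 ± 0.22) at the lowest adjusted p. Lower in that list were 3 genes, with the transcription factors Mafg (-0.84 ± 0.20) and Nfe2l2, or Nrf2 (-0.83 ± 0.21), among them. Of the 9 regulators grouped with Spic, Nr1h3 (4.46 ± 0.22), Maf (4.04 ± 0.31) and 3 others were higher, while the Ets factor Spi1, or PU.1 (-1.18 ± 0.28), and Irf4 (-3.39 ± 0.36) were lower. The GC correction moved these counts to 42 higher and 15 lower.

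Genes whose profile over the 12 libraries came nearest to a member were found by the root mean square difference of log2 values centred on their mean, among 10924 genes. Nearest to Slc40a1 were Cd5l (0.297), Vcam1 (0.366) and Stab2 (0.499). Hmox1 had Slc7a8 (0.359), Axl (0.458) and Reps2 (0.468), and Spic had Hpgds (0.393), Cd38 (0.433) and Igf1 (0.528). Slc48a1 had Pla2g15 (0.304), Vav2 (0.342) and the lysosomal protease Ctsl (0.373), and Blvrb had Lap3 (0.359), Laptm4b (0.385) and Pdlim4 (0.442). The closest matches were those of Slc11a1 with P4ha1 (0.141) and Fth1 with Bcat2 (0.162), Sesn1 (0.203) and the divalent metal transporter Slc11a2 (0.219), and, apart from its own copies, Ftl1 with Ly9 (0.152). Tfrc (Srgap3 at 0.456, Soga1 at 0.468 and Kcnq1ot1 at 0.483) and Bach1 (Csgalnact2 at 0.363, Tns4 at 0.376 and Kdm7a at 0.393) had looser ones. Among the members themselves the nearest pair was Fth1 and Ftl1 (0.377), followed by Fth1 and Slc11a1 (0.477) and Blvrb and Slc48a1 (0.595), and Spic was 0.86 from Slc40a1. The points share libraries and depth, and the distances are a description.

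The 2 libraries that stood apart bent the members unequally. In eYFP+ replicate 1, relative to the other 2 libraries of its group, Spic (log2 1.08), Slc40a1 (0.98) and Ftl1 (0.94) were high and Blvrb (-0.97), Slc11a1 (-0.95), Hmox1 (-0.78) and Slc48a1 (-0.76) low. In Ly6Clo replicate 2, Hmox1 (-2.71), Slc48a1 (-1.81) and Slc11a1 (-1.53) were low and Spic (1.11), Ftl1 (0.93) and Tfrc (0.74) high. The low genes had transcripts of 53.3% to 56.1% GC and Tfrc, Spic and Slc40a1 of 39.8% to 42%, with exceptions: Ftl1, at 58.1% GC, was high in both libraries, and in Ly6Clo replicate 2 Blvrb (53.7% GC) stood at 0.0592 and Slc40a1 (42% GC) at -0.19. The ratio of Fth1 to summed Ftl1 and copies in TPM fell accordingly to 0.276 in eYFP+ replicate 1 and 0.229 in Ly6Clo replicate 2, against 0.384 to 0.628 in the other 10 libraries. Why these libraries differ was not tested.

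**Figure D5:**
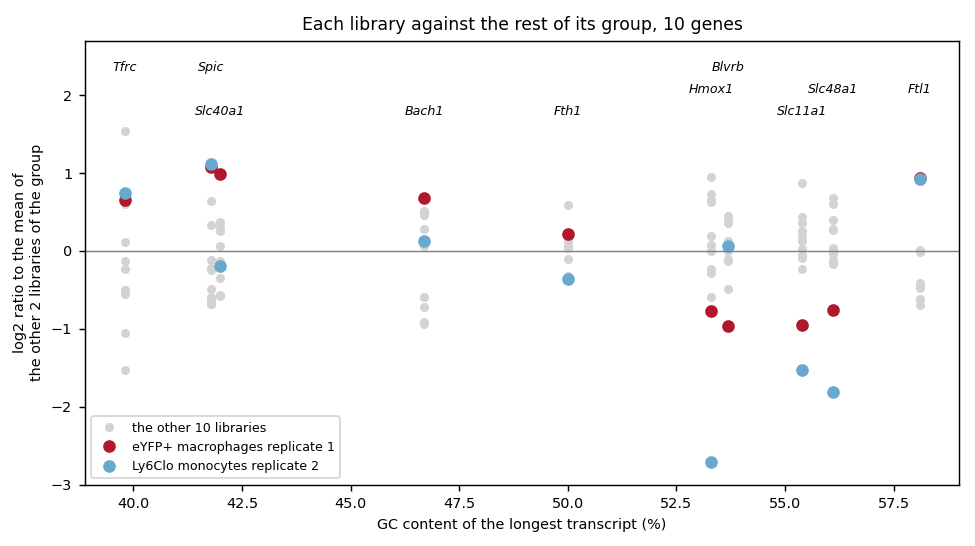
Log2 ratio of each library to the mean of the other 2 libraries of its group, for the 10 genes placed by the GC content of their longest transcript, with 2 libraries in colour and the other 10 in grey. Ly6Clo replicate 2 reaches -2.71 for Hmox1 (53.3% GC), and both coloured libraries are near 0.93 for Ftl1 (58.1% GC).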

How the data were processed

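Sorted bone marrow macrophages and monocytes were profiled by bulk RNA sequencing in 12 libraries. According to the study's methods, the authors trimmed and error-corrected the reads, removed ribosomal fragments, aligned to GRCm39 and counted read pairs that fell unambiguously on Ensembl genes with featureCounts; use of strand is not given in the sources used here. The deposited counts are raw read pairs per gene, and the deposited TPM values are length-scaled by the authors; another table, of variance-stabilised values, was not used. Ambiguous pairs were dropped, so genes with near-identical copies, Ftl1 above all, lose or share counts.

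Libraries were grouped by their labels. Counts were tested with DESeq2 (version 1.42.0, R 4.3.3), 1 fit over the 12 libraries with group as the only term and median-of-ratios scaling, and p-values were adjusted by Benjamini-Hochberg over all genes with a threshold of 0.05; edgeR 4.0.16 (quasi-likelihood) and limma 3.58.1 (log2 of TPM plus 1) were alternatives. Depth ran from 26390927 to 48618187 counts, and 14020 genes had none. Scripts were tested on simulated data. For macrophages against monocytes the groups of each type were averaged with equal weight. Symbols matched 91.4% of identifiers. Of each pathway list, at most the 2 genes with the lowest adjusted p in each direction and a mean of at least 50 normalized counts were named, and 1 result that this rule would name is not reported here. Members and lists were chosen with earlier results of these data known. The alternatives used other scalings, filters, tests, a replicate term and the omission of libraries, and 3 more (a GC correction, 2 libraries left out together, and Ftl1 summed with its copies) were chosen after seeing the data.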

Additional observations from a re-analysis of the deposited data

How the results depend on the processing

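The number of members passing held within 1.5 times under every alternative run, and the 10 calls between macrophages and monocytes, and those of Slc40a1 and Spic between monocyte subsets, passed in each. With Ly6Clo monocytes as the partner, 8 to 10 members passed. What moved was mostly the share of all genes passing. For eYFP+ against eYFP- macrophages it was 2.04% and became 0.334% with edgeR, 0.801% without independent filtering, 0.125% with edgeR and a replicate block, 3.28% with only the compared libraries, 0.613% and 0.331% with limma (pseudocounts 1 and 0.1), 4.61% without the 2 libraries that stood apart, and 1.31% to 2.8% when single libraries were left out (1.31% without eYFP- replicate 3). For the monocyte subsets 8.62% became 4.32% (edgeR), 3.44% (no independent filtering), 2.8% (edgeR, replicate block), 2.64% and 2.17% (limma), 13.6% (2 libraries left out) and 6.45% to 11.3% with single libraries left out. For macrophages against monocytes 35.4% became 16.5% (no independent filtering), 16% and 15.5% (limma), and 19.1% to 39.2% with single libraries left out (41.2% without the 2 that stood apart), the lowest without eYFP+ replicate 2 or eYFP- replicate 2. In the pairs of a macrophage group with a monocyte subset, no independent filtering gave 11.8% (eYFP+ with Ly6Chi), 11.6% (eYFP+ with Ly6Clo), 11.4% (eYFP- with Ly6Chi) and 11.2% (eYFP- with Ly6Clo), limma 11.6%, 10.4%, 11.5% and 10.5% with pseudocount 1 and 11%, 9.94%, 10.9% and 9.75% with 0.1, and only the compared libraries 17.3% (eYFP+ with Ly6Clo). Without independent filtering or a TPM filter more low genes enter the denominator; the other causes were not tested.

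Members that changed sign were all among those not passing. Between macrophage groups Bach1 (0.01) became -0.00556 (edgeR), -0.0168 (TMM), -0.12 (total counts), -0.0914 (edgeR with replicate block), -0.0421 and -0.0570 (limma, pseudocounts 1 and 0.1, and -0.0421 with a TPM filter) and -0.26 (2 libraries left out); Tfrc became 0.00409 and 0.0169 (limma, and 0.00409 with a TPM filter); Fth1 -0.0502 (total counts) and -0.03, Spic -0.0202, Slc48a1 0.12 and Ftl1 -0.11 (2 libraries left out), and Slc48a1 0.16 (GC correction). With single libraries left out the ranges were -0.26 to 0.26 (Bach1), -0.0560 to 0.27 (Fth1), -0.10 to 0.68 (Ftl1), -0.0431 to 0.37 (Slc11a1), -0.22 to 0.13 (Slc48a1), -0.0109 to 0.69 (Spic) and -0.50 to 0.56 (Tfrc). Between monocyte subsets Hmox1 (-0.07) became 0.34, 0.35 and 0.34 (limma: pseudocount 1, 0.1 and TPM filter) and Slc48a1 -0.00412 (2 libraries left out), with single-library ranges of -0.55 to 0.32 (Hmox1), -0.0238 to 0.43 (Bach1) and -0.00251 to 0.65 (Slc48a1). The median of all genes moved by -0.108 with total-count scaling between macrophage groups and by -0.191 with the GC correction between macrophages and monocytes.

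The labels number the replicates 1 to 3 in every group. Over 2000 genes, deviations from the group means of same-numbered libraries correlated at 0.392, 0.212 and 0.071 between macrophage groups. Between monocyte subsets they correlated at 0.284, 0.068 and -0.0256. Libraries of different number were not compared in this way, so these values do not decide whether the numbers mark pairs. The main fit did not take them as pairs. With a replicate block in DESeq2, 0, 2 and 10 members passed for the macrophage groups, the monocyte subsets and macrophages against monocytes, Bach1 between macrophage groups became -0.0723, and the share of all genes was 3.03%, 6.29% and 23%, and 15.9%, 16.8%, 16% and 15.9% in the 4 pairs.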

Other observations

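The levels of 4 genes around iron handling in the Ly6Clo and Ly6Chi monocytes are given beside those of macrophages, named after their values were seen. Hfe measured 23637 to 26494 normalized counts in Ly6Clo monocytes, above the 12434 to 22219.8 of all 6 macrophage libraries and the 3855 to 4353 of Ly6Chi monocytes. Cp, the ferroxidase that works with ferroportin, spanned 209 to 916 in Ly6Clo monocytes, 561 to 928 in eYFP+ and 319 to 475 in eYFP- macrophages, and 3.64 to 128 in Ly6Chi monocytes. Pparg measured 5690, 10081 and 5480.4 in Ly6Clo monocytes, the highest in replicate 2, which stood apart from its group, against 10570.0 to 18528 in macrophages and 151 to 295 in Ly6Chi monocytes. eYFP+ macrophages were above Ly6Clo monocytes in Pparg by 1.07 ± 0.38 (log2, SE, adjusted p = 0.0204, DESeq2), while eYFP- macrophages stood at 0.86 (adjusted p = 0.0774, DESeq2). In contrast Alas1 was highest in Ly6Chi monocytes, at 3964 to 4168 against 1837 to 3036 in macrophages and 2007 to 2253 in Ly6Clo monocytes.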
